A study of Mus musculus with 3 samples.

Results

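The nuclei described here were the *Rorb* glutamatergic neurons of the adult mouse basolateral amygdala (BLA), measured by single-nuclei RNA sequencing (snRNAseq) with 10x 3′ chemistry. They were chosen by counts of unique molecular identifiers (UMIs), each of which stands for 1 captured RNA molecule. A glutamatergic base was taken first. Barcodes entered it if they detected over 200 genes, if mitochondrial transcripts stayed under 20% of UMIs, and if they had at least 1 UMI of *Slc17a7* or *Slc17a6*, no UMI of *Gad1* or *Gad2*, and less than 0.1% of UMIs from the astrocyte transporters *Slc1a2* and *Slc1a3*. Within the base, nuclei with at least 2 *Rorb* UMIs and fewer than 2 *Rspo2* UMIs were kept, and these are called Rorb nuclei. There were 117 Rorb nuclei, 66 of 819 base nuclei in library 2 and 51 of 487 in library 3, among 9199 deposited barcodes in all. The BLA was dissected from both hemispheres of male C57BL/6NRj mice at postnatal day 56, with tissue of 4 littermates pooled in each dataset. There was 1 condition and no treatment. Library 1, with 58 base nuclei, was not used in the comparisons. Whether libraries 2 and 3 came from separate sets of brains was not given in the sources used here, so p-values measure only the spread between these 2 libraries, which may be technical.

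*Rorb* encodes RORβ, a nuclear receptor that acts as a transcription factor. In the neocortex it is best known as a marker of layer 4 neurons, which receive input from the thalamus, and it is also made in the retina and in brain regions tied to daily rhythms. Its relative RORα binds similar DNA elements, and both act on genes of the circadian clock. Glutamatergic neurons of the BLA are projection neurons that load glutamate into vesicles, in most of them with the transporter encoded by *Slc17a7*. *Rspo2*, which encodes a secreted enhancer of Wnt signalling, marks another glutamatergic population, and the rule set that population apart.

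The rule fixed the *Rorb* level, so that level is given only as a description. Rorb nuclei held a median of 3 *Rorb* UMIs in library 2 and 4 in library 3, up to 28 and 14. At the threshold, 24 and 17 nuclei had exactly 2 UMIs and were kept, while 54 and 36 base nuclei had 1 and were left out. Another 8 of 74 and 5 of 56 base nuclei with at least 2 *Rorb* UMIs also had at least 2 *Rspo2* UMIs and were left out. Rorb nuclei made up 8.06% of the base in library 2 (exact Clopper-Pearson 95% interval 6.29 to 10.1%) and 10.5% in library 3 (7.90 to 13.5%). The intervals of the libraries overlapped. They cover counting error only. The share moved with the threshold and the depth. It was 15.7% with 1 UMI required and 3.64% with 5, as the mean of both libraries, and 3.41% when each base nucleus was thinned to 3000 UMIs.

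Depth moved with the choice. Median depth was 15911 and 12078 UMIs in Rorb nuclei of libraries 2 and 3, and 9837 and 9651 in the 691 and 395 base nuclei without *Rorb* UMIs. Each Rorb nucleus was therefore paired with the Rorb-0 nucleus of its own library that was nearest in UMI total, within 10%. All 66 and 51 nuclei found a partner, and the partners had medians of 15865 and 12053 UMIs. Levels are given below in CPM, the UMIs of a gene per 1000000 UMIs of all nuclei of a group in a library, always in the order library 2, library 3. Libraries 2 and 3 shared 7 barcode sequences, and none of them belonged to a Rorb nucleus.

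*Zfp536* and *Lypd1* were the markers given for these neurons besides *Rorb*. They were chosen with earlier results of these data known, so their values are no independent check. On GRCm38, *Rorb* lies at chr19:18930605-19111196, *Zfp536* at chr7:37472135-37773641 and *Lypd1* at chr1:125867622-125913101, each on the minus strand. *Zfp536*, which encodes a zinc finger repressor of transcription, stood at 248 and 203 CPM in Rorb nuclei and at 42.8 and 58.1 CPM in the depth-matched Rorb-0 nuclei. It was detected in 49 of 66 and 32 of 51 Rorb nuclei, against 17 and 17 partners. The difference passed the test, with a log2 fold change of 2.22 ± 0.20 (SE) and an adjusted p of 7.7e-06 (edgeR quasi-likelihood test, Benjamini-Hochberg adjustment). *Lypd1*, which encodes a prototoxin that binds nicotinic receptors, was at 279.9 and 289 CPM in Rorb nuclei and 183 and 246 CPM in partners. Its log2 difference of 0.46 ± 0.16 (SE) did not pass (adjusted p = 0.15). Against partners also held to fewer than 2 *Rspo2* UMIs the log2 difference of *Lypd1* was 0.02, and that of *Zfp536* was 1.99. *Lypd1* was thus abundant in Rorb nuclei without a detected difference from glutamatergic nuclei lacking *Rorb*. With every nucleus thinned to 1000 UMIs, *Zfp536* was found in 22.7% (13.3 to 34.7%) and 23.5% (12.8 to 37.5%) of Rorb nuclei. In Rorb-0 nuclei it was found in 5.54% (3.93 to 7.55%) and 7.20% (4.84 to 10.2%). In the same nuclei *Lypd1* was found in 27.3% (17.0 to 39.6%) and 27.5% (15.9 to 41.7%) of Rorb nuclei. In Rorb-0 nuclei it was found in 17.8% (15.0 to 20.9%) and 16.5% (12.9 to 20.5%). These intervals count each nucleus as independent and cover counting error only, so they give no test between the groups. No Rorb nucleus and 23 and 6 Rorb-0 nuclei were too shallow to be thinned. Among astrocytes, where *Zfp536* was near 0, the thinned share was 1.68% and 1.12%.

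Neither gene belonged to these neurons alone. *Rorb* was at 346 and 354 CPM in Rorb nuclei but at 1840.0 and 2389 CPM in astrocytes, taken as barcodes with at least 1% of UMIs from *Slc1a2* and *Slc1a3* and no UMI of the transmitter genes. In GABAergic nuclei it was at 4.20 and 14.8 CPM and in oligodendrocytes at 8.03 and 12.9 CPM. *Zfp536* showed the reverse order in glia, with 3260.5 and 2725 CPM in oligodendrocytes and 16.6 and 11.2 CPM in astrocytes. GABAergic nuclei held 649 and 515 CPM of it, above the Rorb nuclei. *Slc17a7*, a gene of the rule, was detected in 57 and 44 Rorb nuclei, and the other 9 and 7 entered through *Slc17a6* only.

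**Figure D1:**
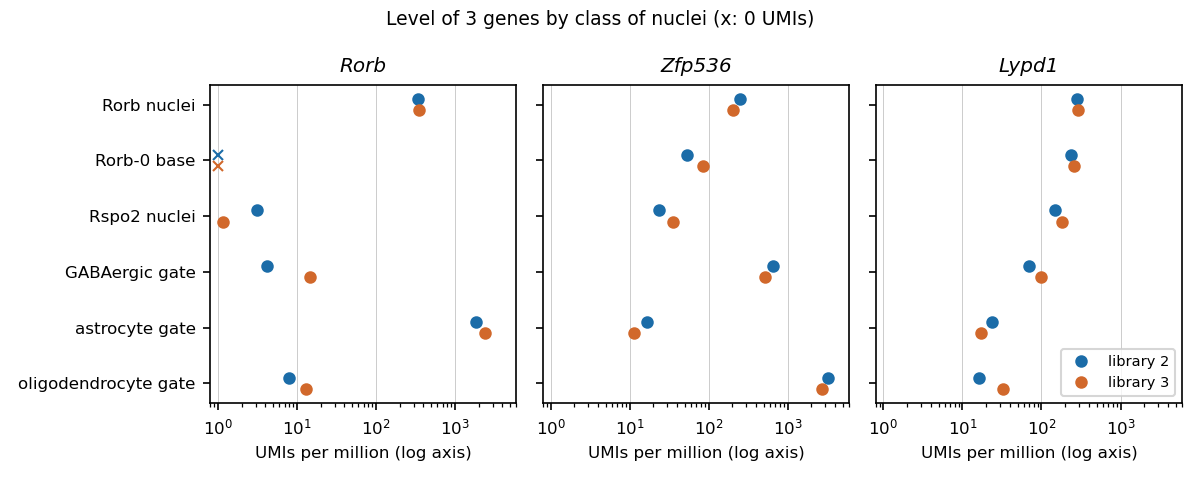
Level of *Rorb*, *Zfp536* and *Lypd1* in CPM (log axis) by class of nuclei, 1 point per library (blue library 2, orange library 3; crosses mark 0 UMIs). *Rorb* peaks in astrocytes and *Zfp536* in oligodendrocytes, while *Lypd1* lies between 147 and 184 CPM in Rspo2 nuclei and 279.9 and 289 CPM in Rorb nuclei among the glutamatergic classes.

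The first comparison asked what else set Rorb nuclei apart from glutamatergic nuclei of the same depth without *Rorb*. The rule limits *Rspo2* in Rorb nuclei but not in these partners. *Rspo2* stood at 1.94 and 10.2 CPM in Rorb nuclei and at 47.6 and 87.2 CPM in partners. Of 7521 genes tested outside the rule, 303 differed at an adjusted p below 0.05, which is 4.03% of those tested. In Rorb nuclei 189 were higher (2.51%) and 114 lower (1.52%), and all 303 had the same sign in both libraries. With partners held to fewer than 2 *Rspo2* UMIs, 301 of the 303 were tested, 299 kept direction and 240 were called again. The higher genes included ion channels (*Kcnh5*, *Kcnh8*), transcription factors (*Zfp536*, *Satb1*, *Mef2c*, *Tox*, *Rora*) and adhesion and guidance genes (*Cdh6*, *Sema3d*). Among the lower genes were *Chst9*, *Adamts2*, *Rerg*, *Grik3* and *Cdh9*. DESeq2 called 54 of 5334 genes (1.01%), 40 higher (0.750%) and 14 lower (0.262%), and each of the 54 was also called by edgeR. With 4 sums and 1 residual degree of freedom, the test leans on the spread that edgeR shares across genes, and the count moved from 303 to 164 without the library block and to 40 with library sizes in place of TMM factors.

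**Figure D2:**
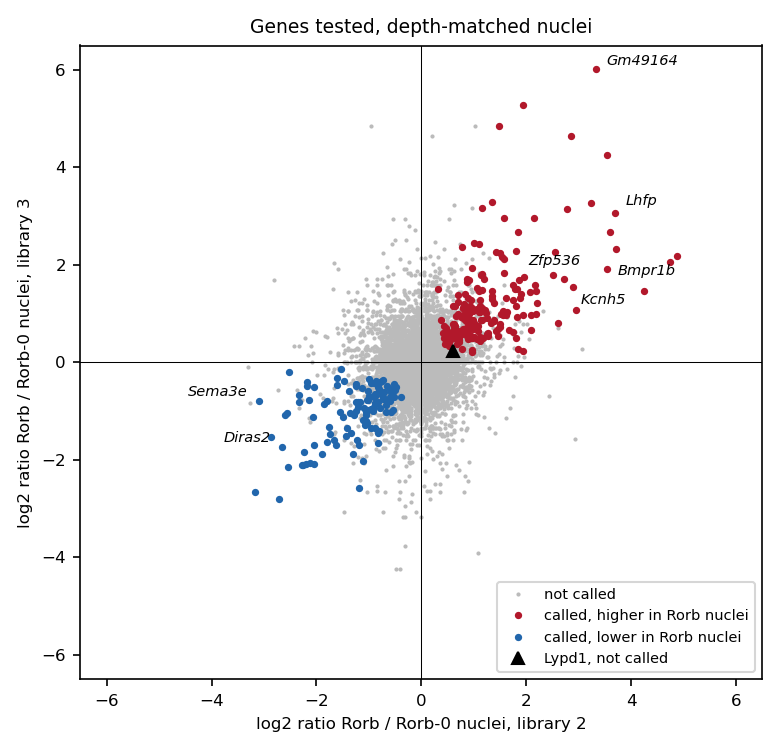
Each point is a gene tested between Rorb nuclei and depth-matched Rorb-0 nuclei, placed by its log2 ratio of CPM in library 2 (horizontal) and library 3 (vertical); red and blue points are the 189 higher and 114 lower genes called by edgeR, and the triangle is *Lypd1*. All called genes lie in the quadrants where the 2 libraries have the same sign, and *Lypd1* lies inside the grey cloud near the origin.

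Of the 12 genes with the highest fold, *Lhfp*, which encodes a tetraspan membrane protein, stood at 81.6 and 78.3 CPM in Rorb nuclei and 5.83 and 8.72 CPM in partners. Both Rorb sums lay far above both partner sums, by 11.4-fold in the fit (log2 3.52 ± 0.33 (SE), edgeR adjusted p = 1.1e-05), and 30 and 19 Rorb nuclei held a UMI of it against 3 and 5 partners. *Col26a1*, a collagen gene, was at 190.5 and 92.8 CPM against 32.1 and 18.9, so that the levels in Rorb nuclei differed between libraries while both stayed above the partners (log2 2.51 ± 0.22 (SE), edgeR adjusted p = 5.5e-06). *Bmpr1b*, a receptor for bone morphogenetic proteins, was at 84.6 and 128 CPM against 6.80 and 33.4 (log2 2.57 ± 0.30 (SE)). *Sema3d*, a secreted semaphorin, was at 70.0 and 31.9 CPM against 4.86 and 5.81 (log2 3.35 ± 0.42 (SE)). DESeq2 called each of these genes as well.

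Other genes of that group were lower in count. *Kcnh8*, a voltage-gated potassium channel, had 30 and 22 UMIs in Rorb nuclei and 2 and 3 in partners. *Crispld1* had 28 and 12 against 1 and 4, and *Tnni3k*, a kinase gene, had 24 and 19 against 5 and 2. Their log2 differences were 3.33, 2.93 and 2.61, and DESeq2 filtered all 3 out for low counts and gave them no adjusted p. Another 4 of the group were long intergenic non-coding RNAs. *4930467D21Rik* had 103 and 47 UMIs in 21 and 15 Rorb nuclei against 3 and 10 UMIs in 3 and 6 partners, and *Gm14015* had 25 and 12 UMIs against 3 and 0. *Gm49171* had 42 and 14 against 4 and 1. *Gm49164* had the largest fitted change, log2 4.23 ± 0.55 (SE), but its 45 and 32 UMIs lay in only 3 and 2 Rorb nuclei, so that its level describes 5 nuclei and not the group. The last 2 are neighbours on chromosome 14 (GRCm38, *Gm49164* at chr14:73728568-73956061 on the plus strand, *Gm49171* at chr14:73979158-74451303 on the minus strand).

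**Figure D3:**
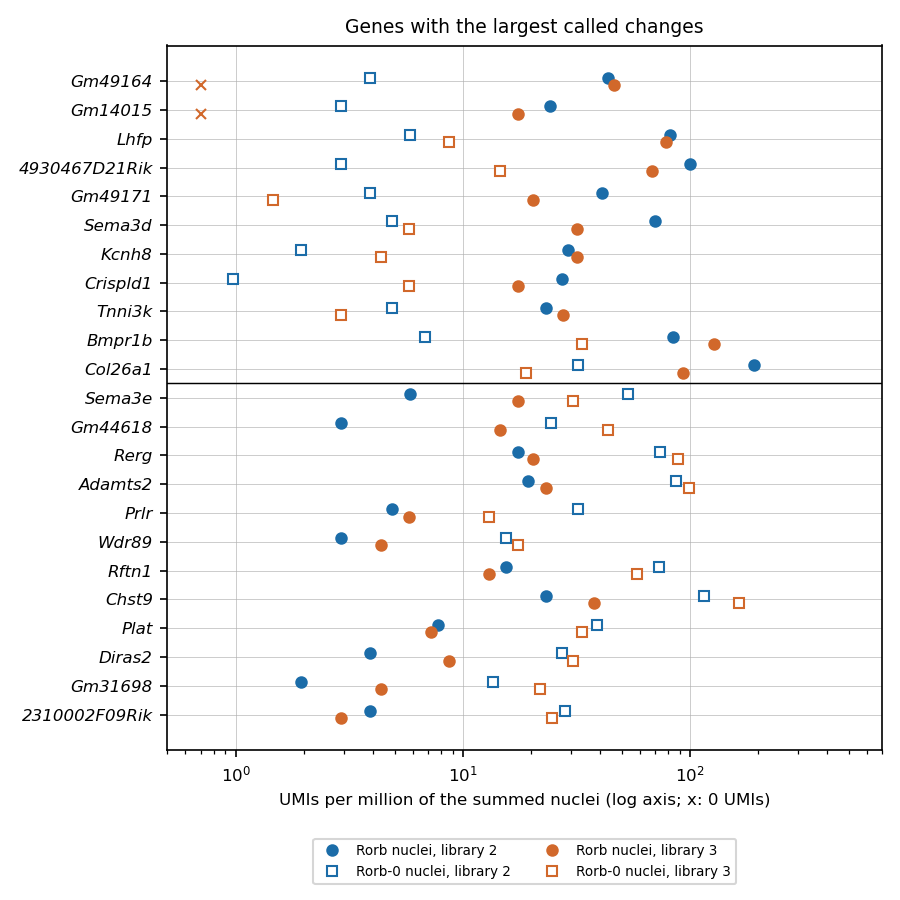
Level in CPM (log axis) of genes with the highest (above the line) and the 12 with the lowest log2 fold change among those called with at least 30 UMIs; filled circles are Rorb nuclei, open squares depth-matched Rorb-0 nuclei, blue library 2 and orange library 3, and crosses mark 0 UMIs. In every row the 2 circles lie on the same side of the square of their own library, with gaps from 3.97-fold (*Sema3e*) upward in the fit.

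Among the 12 lowest genes, *Chst9*, which encodes a sulfotransferase for N-acetylgalactosamine, was at 23.3 and 37.7 CPM in Rorb nuclei and 115 and 164 CPM in partners. Its level was 4.53-fold lower (log2 −2.18 ± 0.21 (SE), edgeR adjusted p = 1.1e-05). *Adamts2*, a protease that trims procollagens, was at 19.4 and 23.2 CPM against 86.5 and 98.8 and was detected in 7 and 7 Rorb nuclei against 27 and 15 partners. *Rerg* and *Diras2*, both small GTPases of the Ras family, were at 17.5 and 20.3 CPM against 73.9 and 88.6 and at 3.89 and 8.70 CPM against 27.2 and 30.5. For *Plat*, which encodes tissue plasminogen activator, the levels were 7.77 and 7.25 CPM against 38.9 and 33.4, and for *Rftn1*, a lipid raft gene, 15.6 and 13.1 against 72.9 and 58.1. Log2 differences of these 5 genes lay between −2.24 and −2.07. *Prlr*, the prolactin receptor gene, rested on 33 and 9 UMIs in 12 and 2 partners, and *Wdr89*, *2310002F09Rik*, *Gm31698*, *Gm44618* and *Sema3e* on at most 55 UMIs in a sum. DESeq2 also called *Chst9*, *Adamts2* and *Rerg*. Partners could hold *Rspo2*, and *Adamts2*, *Diras2* and *2310002F09Rik* were also lower in Rorb nuclei than in Rspo2 nuclei.

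The folds above favour sparse genes, and more abundant ones also differed. Among the 54 genes called by both tools, chosen here after their values were seen, *Trpm3*, a cation channel, was at 2172 and 3039 CPM against 973 and 1404 (log2 1.16 ± 0.12 (SE), edgeR adjusted p = 1.9e-05). *Pdzrn3*, a ubiquitin ligase gene, was at 665 and 506 CPM against 222 and 142 (log2 1.72 ± 0.15 (SE)), and the long non-coding RNA *Rmst* at 684 and 754 against 306 and 214 (log2 1.49 ± 0.16 (SE)). *Dscam*, a cell adhesion gene, was at 1015 and 1066 CPM against 487 and 499.9, and *Mgll*, which breaks down the endocannabinoid 2-AG, at 143 and 109 against 31.1 and 39.2. *Satb1*, a chromatin organiser, was at 209.9 and 120.4 CPM against 48.6 and 61.0. On the lower side, the calcium channel subunit gene *Cacnb2* was at 363 and 509 CPM against 861 and 892 and *Neto1*, an auxiliary subunit of kainate and NMDA receptors, at 146 and 186 against 304 and 394. In each of these genes both Rorb sums lay on 1 side of both partner sums. Astrocytes held 3873 and 4293 CPM of *Trpm3*, more than Rorb nuclei, and 31.3 and 38.0 CPM of *Dscam*.

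Lists of genes by function gave the following counts, each to be read beside the 2.51% and 1.52% of all genes called higher and lower. Of 31 pallial transcription factors tested, 5 were higher and 4 lower, with a median log2 difference of −0.19 against −0.015 over all genes. *Mef2c*, a MADS box factor, was at 1023 and 1066 CPM against 427 and 569.6 (log2 1.11), and *Tox*, an HMG box factor, at 582 and 695 against 305 and 309.5 (log2 1.07). *Tshz2*, *Tshz3* and *Dach1* were higher by 0.64 to 0.76 on the log2 scale. Among the lower members were *Meis2* at 115 and 104 CPM against 211 and 267, *Sox5* at 204 and 252 against 395 and 488, and *Nfib*. *Sox5* and *Nfib* did not pass when the partners were also held to fewer than 2 *Rspo2* UMIs (edgeR adjusted p = 0.17 and 0.19). Of 8 layer 4 and upper layer genes tested, 2 were higher, *Kcnh5* and the homeobox gene *Cux2* (260.5 and 159.5 CPM against 109 and 106). Of 8 zinc finger genes grouped with *Zfp536*, only *Zfp536* itself was called.

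In the list of ROR family and clock genes, 1 of 9 tested was called. *Rora*, which encodes RORα, was at 1575 and 1698 CPM in Rorb nuclei against 901 and 866 in partners, 1.88-fold higher (log2 0.91 ± 0.12 (SE), edgeR adjusted p = 0.00015). Nearly all nuclei of both arms held it, 66 and 51 against 63 and 50. The core clock genes did not pass. *Arntl*, *Clock* and *Npas2* had log2 differences of 0.32 ± 0.18 (SE), 0.16 ± 0.17 (SE) and −0.04 ± 0.16 (SE). *Cry2*, *Per2*, *Per3* and *Nr1d2* lay between 0.29 and 0.56, with standard errors from 0.21 to 0.39. *Tef* completed the list. The intervals these errors give are wide for the sparsest of them, *Per2*, with 26 and 10 UMIs in the Rorb sums.

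Ion channels and receptors changed in both directions. Of 29 potassium channel genes tested, 5 were higher and 1 lower (median log2 0.24). *Kcnh5*, a channel of the ether-à-go-go family, was at 348 and 286 CPM against 46.7 and 97.4, 4.74-fold higher (log2 2.25 ± 0.23 (SE), edgeR adjusted p = 2.2e-05). *Kcnk2*, a leak channel, was at 79.7 and 53.7 CPM against 12.6 and 30.5, and *Kcnh1*, *Kcnip4* and *Kcnh7* were higher by 0.96, 0.70 and 0.44 on the log2 scale, while *Kcnd3* fell by 0.546. Of 24 sodium, calcium, HCN and TRPC channel genes, 5 were higher, among them *Scn7a*, *Trpc6*, *Cacna2d3* and *Cacna1a*, and 3 were lower, among them *Trpc7* and *Cacna1e*. *Trpc6* was at 108 and 88.5 CPM against 35.0 and 34.9, and its family member *Trpc7* at 34.0 and 17.4 against 70.0 and 42.1. *Cacna1e*, an R-type calcium channel, was at 514 and 638 CPM against 1036 and 1099.

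Of 16 ionotropic glutamate receptor genes, 1 was higher and 2 were lower. The kainate receptor genes *Grik2* and *Grik3* parted: *Grik3* was at 59.3 and 60.9 CPM against 199 and 170.0 (log2 −1.60 ± 0.18 (SE), edgeR adjusted p = 4.6e-05) and *Grik2* at 2075 and 2145 against 1436 and 1705 (log2 0.46 ± 0.12 (SE)). *Grin2d* was the other lower gene, with 5 and 4 UMIs against 20 and 16. Among 6 metabotropic receptors *Grm3* was higher, at 393 and 265 CPM against 133 and 128, and 1 was lower. Of 17 monoamine and peptide receptor genes, *Htr2a*, a serotonin receptor, was the one called (50.5 and 42.1 CPM against 23.3 and 7.27, log2 1.55 ± 0.34 (SE)). *Ly6h*, a prototoxin gene, was lower at 100.1 and 52.2 CPM against 188 and 85.7, the 1 gene called of 4 prototoxin and nicotinic receptor genes. *Gabrg3* was higher among 13 GABA receptor genes. None of 10 neuropeptide and growth factor genes and none of 5 activity-dependent genes passed.

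Most of the adhesion and guidance genes that passed were higher. Of 19 cadherins and protocadherins, 5 were higher and 1 lower, with a median log2 of −0.0070 over the list. *Cdh6* was at 68.0 and 115 CPM against 18.5 and 17.4 (log2 2.28 ± 0.27 (SE), edgeR adjusted p = 6e-05), and *Cdh9*, of the same family, at 119.5 and 168 against 301 and 459 (log2 −1.37 ± 0.15 (SE)). Cadherins are calcium-dependent adhesion proteins that bind preferentially to their own kind. *Cdh12*, *Cdh10*, *Cdh18* and *Cdh4* were higher by 0.61 to 0.89 on the log2 scale. Of 34 axon guidance genes, 7 were higher and 2 lower. Besides *Sema3d*, these were *Sema3a*, *Sema6a*, *Plxnd1*, *Ephb1*, *Efna5* and *Ntng1*, and the lower ones were *Sema3e* and *Plxna4*. *Ntng1*, which encodes netrin-G1, was at 680.3 and 544 CPM against 339 and 309.5. *Sema3e*, the ligand of the receptor encoded by *Plxnd1*, was at 5.83 and 17.4 CPM against 53.5 and 30.5, and it did not pass against partners held to fewer than 2 *Rspo2* UMIs (edgeR adjusted p = 0.15). Of 30 synaptic adhesion genes, *Adgrl2*, *Nrxn3*, *Cntnap5b* and *Ptprd* were higher, by 0.63 to 0.78 on the log2 scale, and none was lower.

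Of the 10 genes the study used to tell glutamatergic clusters apart, 8 were tested here, and 2 were lower. They were *Adamts2* and *Otof*, which encodes a calcium sensor of vesicle release (37.9 and 59.5 CPM against 168 and 102, log2 −1.51 ± 0.25 (SE), edgeR adjusted p = 0.0011). *Etv1* was at 103 and 52.2 CPM against 118 and 182, close to its partners in library 2 and below them in library 3. *Sema5a* was at 37.9 and 72.5 CPM against 113 and 81.4, below its partners in both libraries, and did not pass (log2 −0.89 ± 0.26 (SE), edgeR adjusted p = 0.065). The libraries went apart for *Cdh13*, at 383 and 673 CPM against 797 and 594, and for *Grik1*. *Grik1* was at 61.2 and 191 CPM in Rorb nuclei against 173 and 90.1 in partners, lower in library 2 and higher in library 3. *Bdnf* was at 28.2 and 31.9 CPM against 26.2 and 30.5. Its log2 difference was 0.11 ± 0.31 (SE). These 10 genes were picked by the study on the same libraries.

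Within the base, the level of *Kcnh5* followed the number of *Rorb* UMIs in a nucleus. Nuclei with fewer than 2 *Rspo2* UMIs were split by *Rorb* count into 0, 1, 2, 3 to 4 and 5 or more. *Kcnh5* stood at 62.1, 111, 189.9, 289.9 and 463 CPM in library 2. In library 3 it stood at 106, 114, 159.7, 290.1 and 359.9 CPM. The order was the same in both libraries. *Kcnh5* had already been called on the same *Rorb* counts, so its order is a description only. *Cdh6* rose with each class in library 2, but in library 3 it stood at 43.1, 17.0, 34.9, 145 and 148 CPM. *Chst9* stayed at 156 and 124 CPM in nuclei with 1 *Rorb* UMI, just outside the threshold, and was at 34.5 and 34.9 CPM in nuclei with 2, just inside it. With 3 to 4 it was at 4.39 and 107 CPM, so that the libraries differed. *Zfp536* was at 118 and 99.8 CPM just outside and 162 and 149.7 CPM just inside. It was at 373 and 139 CPM with 3 to 4 and 240.4 and 266 CPM with 5 or more, so that its order broke in both libraries. *Lypd1* had no order either, with 267 and 281 CPM at 0 UMIs, 217 and 189.6 CPM at 2 and 293 and 351 CPM at 5 or more. These classes also differ in depth, from medians of 8748 and 8345 UMIs at 0 to 20822 and 13943 at 5 or more, and no test was made of them.

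**Figure D4:**
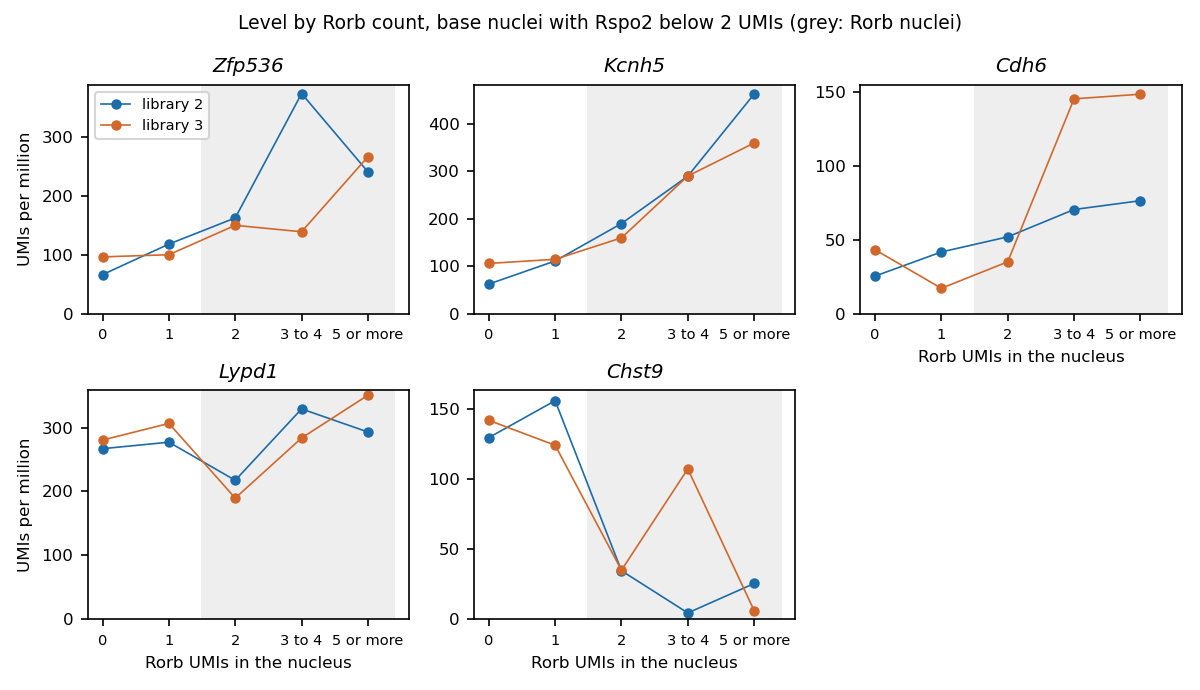
Level in CPM of 5 genes by the number of *Rorb* UMIs in a nucleus, for base nuclei with fewer than 2 *Rspo2* UMIs, summed by library (blue library 2, orange library 3); the grey area holds the Rorb nuclei. *Kcnh5* is higher in each next class in both libraries, and *Cdh6* in library 2 only. *Chst9* is below its level at 0 in every class of 2 or more, by the least at 3 to 4 in library 3 (107 CPM), and *Lypd1* shows no order.

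Since *Rorb* was higher in astrocytes than in these neurons, astrocyte markers were measured beside the result. *Slc1a2*, a gene of the rule, was at 307 and 277 CPM in Rorb nuclei and at 106 and 129 CPM in partners. *Slc1a3*, the other astrocyte gene of the rule, was at 13.6 and 49.3 CPM against 36.9 and 33.4, with no shared direction. The 10 astrocyte markers not used by the rule summed to 450.0 and 613 CPM in Rorb nuclei, 284 and 356 CPM in partners, and 20757 and 23098 CPM in astrocytes. *Gpc5* was the most abundant of them, at 268 and 342 CPM in Rorb nuclei and 222 and 241 CPM in partners, and *Gfap* was at 0 in both arms. The difference between the arms in this sum equals 0.800% and 1.11% of the astrocyte level. Single markers differ, and the share would be smaller from *Gpc5* alone and larger from *Slc4a4* alone. Of the 12 astrocyte markers, 5 were tested and 2 were higher, *Slc4a4* (129 and 186 CPM against 37.9 and 75.6) and *Plpp3* (29.2 and 34.8 against 9.72 and 7.27).

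Among the 189 higher genes, the same share of the astrocyte level came to more than 10% of the difference in at least 1 library for 23 and to more than 50% for 3, *Plpp3*, *Sox6* and *Lama2*. For *Lhfp* it came to 6.94 and 8.08%, for *Bmpr1b* to 8.23 and 11.3%, for *Rora* to 7.32 and 7.59% and for *Zfp536* to 0.0648 and 0.0862%. For the astrocyte marker *Slc4a4* itself it came to only 18.9 and 27.3%, so these percentages depend on the markers summed. Astrocytes held more than the Rorb nuclei of 57 of the 189 higher genes (30.2%), against 40.1% of all genes tested. The same held for 29 of the 114 lower genes (25.4%). These shares compare levels and do not measure astrocyte RNA in Rorb nuclei. In the 35 and 26 Rorb nuclei free of 7 glial marker genes, *Zfp536* was higher than in like partners by 3.15 on the log2 scale, *Lhfp* by 4.52 and *Kcnh5* by 2.59, each at least as large as in all Rorb nuclei. *Sema3d* and *Cdh6* had log2 differences of 2.12 and 1.16 there and did not pass (edgeR adjusted p = 0.099 and 0.084). Of the 303 called genes, 261 were tested in these nuclei, 260 kept their direction and 147 were called again. Oligodendrocyte markers summed to 192 and 56.6 CPM in Rorb nuclei and 173 and 85.7 CPM in partners, with no shared direction. *Reln*, the leading gene of the GABAergic list, was at 39.8 and 78.3 CPM against 34.0 and 18.9, and *Pvalb* was at 0 in both arms. Markers of oligodendrocyte precursors summed to 444 and 605 CPM against 468 and 446, most of it from *Lhfpl3* (404 and 376 UMIs against 462 and 299). Their defining gene *Pdgfra* had 11 and 17 UMIs in Rorb nuclei and 1 and 1 in partners, and *Cspg4* had 13 and 5 against 1 and 1, too few to be tested. *Vcan* had 21 and 18 UMIs against 17 and 5, *Olig1* 5 and 0 against 0 and 0, and *Olig2* 3 and 1 against 0 and 1. Without *Lhfpl3* the precursor genes were thus sparse, and more of their UMIs lay in Rorb nuclei. Microglial markers summed to 30.1 and 18.9 CPM against 20.4 and 13.1, vascular markers to 32.1 and 20.3 against 13.6 and 29.1, and ependymal markers to 18.5 and 13.1 against 15.6 and 29.1. Markers of glutamatergic territories near the BLA summed to 243 and 218 CPM against 223 and 177. None of the markers tested outside the astrocyte list was called, and the part of other cell types in the differences was not tested.

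The second comparison set Rorb nuclei against the Rspo2 nuclei, base nuclei with at least 2 *Rspo2* and fewer than 2 *Rorb* UMIs. There were 108 in library 2 and 48 in library 3, and 59 and 36 pairs could be matched for depth. Between the 2 populations 634 of 7161 genes differed (8.85%), 353 higher (4.93%) and 281 lower (3.92%) in Rorb nuclei. The sign was the same in both libraries for 622 of the 634. Rorb nuclei were higher in *Zfp536*, *Kcnh5*, *Kcnk2*, *Chrm3* and *Slc4a4*, and Rspo2 nuclei in *Cdh9*, *Sema3e*, *Itgbl1*, *Npsr1* and *Etv1*. For this table edgeR gave the spread of single genes no weight beside the shared trend, so small adjusted p-values rest on that trend, and DESeq2 called 153 of 4662 genes (3.28%), 96 higher (2.06%) and 57 lower (1.22%), each also called by edgeR. Of the 634 genes, edgeR called 327 again without the library block, 199 of 604 tested without the deepest 10% of base nuclei and 186 of 445 tested with no glial marker UMI. Both comparisons drew on the same Rorb nuclei, but this one used only the 59 and 36 with a partner. Their median depth was 17227 and 14584 UMIs.

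*Zfp536* was at 242 and 197 CPM in Rorb nuclei and 29.7 and 42.4 CPM in Rspo2 nuclei (log2 2.69 ± 0.23 (SE)), and *Lypd1* at 271 and 270.0 against 138 and 169 CPM (log2 0.85 ± 0.17 (SE), edgeR adjusted p = 3.4e-05). *Lypd1* thus passed against Rspo2 nuclei, though not by DESeq2 (adjusted p = 0.16), nor by edgeR without the deepest 10% (0.056) or with no glial marker UMI (0.10). *Kcnh5* was at 332 and 268 CPM against 41.9 and 44.1 and *Kcnk2* had 79 and 33 UMIs against 5 and 4, differences of 7.15-fold and 11.9-fold. Among the lower genes, *Itgbl1*, an integrin-like gene, was at 20.2 and 17.0 CPM against 192 and 157. *Sema3e* was at 6.06 and 20.4 CPM against 137 and 101 and *Cdh9* at 122 and 175 against 656 and 911. In each of these genes both Rorb sums lay on 1 side of both Rspo2 sums. *Col5a2*, *Diras2*, *Vxn*, *Ptprc*, *Gm49127* and *2310002F09Rik* were the other genes among the 8 lowest, with log2 differences from −3.99 to −2.40.

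The 8 highest genes of this comparison were all low in count in Rspo2 nuclei. *Mybpc1*, a myosin-binding protein gene, had 67 and 19 UMIs in Rorb nuclei and 0 in both Rspo2 sums, and its UMIs lay in 5 and 3 nuclei only. *Lama2*, *Gm49164* and *Kcnh8* had 13 and 31, 45 and 32 and 29 and 13 UMIs, in 4 and 5, 3 and 2 and 11 and 7 Rorb nuclei. *Crispld1*, *Gm14015*, *Gm2164* and *Gm16070* completed the group. DESeq2 called *Gm49164* and gave the other 7 no adjusted p.

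**Figure D5:**
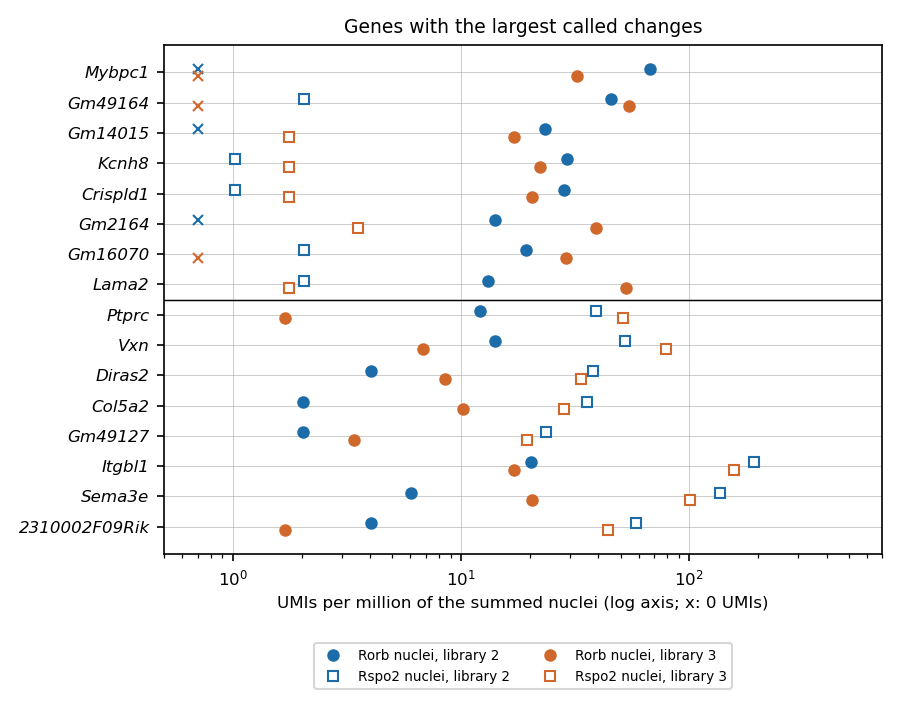
Level in CPM (log axis) of the 8 highest and 8 lowest called genes between Rorb nuclei (filled circles) and depth-matched Rspo2 nuclei (open squares), blue library 2 and orange library 3; crosses mark 0 UMIs. *Mybpc1* has no UMI in Rspo2 nuclei of either library, and *Itgbl1* and *Sema3e* are the most abundant of the lower genes in Rspo2 nuclei, at 192 and 157 and 137 and 101 CPM.

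The list counts of this comparison stand beside 4.93% of all genes called higher and 3.92% called lower. By function, 5 of 8 layer 4 and upper layer genes were higher in Rorb than in Rspo2 nuclei and none was lower (median log2 0.97 over the list and 0.0039 over all genes). They were *Kcnh5*, *Cux1*, *Brinp3*, *Unc5d* and *Cux2*, with log2 differences of 2.84, 1.30, 1.20, 0.97 and 0.96. *Cux1* and *Cux2* were not called by DESeq2 (adjusted p = 0.19 and 0.24) or by edgeR without the deepest 10% of base nuclei (adjusted p = 0.099 and 0.17). *Cux1* was at 115 and 117 CPM against 31.7 and 72.4. Pallial transcription factors went both ways, 5 higher and 5 lower of 31. *Meis1*, *Mef2c*, *Tox*, *Pbx3* and *Dach1* were higher, while *Sox5* (206 and 238 CPM against 644 and 795), *Etv1* (106 and 52.6 against 229 and 259.5), *Lmo4*, *Zfhx3* and *Zfpm2* were lower. Without the deepest 10% of base nuclei, edgeR no longer called *Meis1*, *Pbx3*, *Dach1*, *Lmo4*, *Zfhx3* and *Zfpm2* (adjusted p from 0.067 to 0.24). DESeq2 did not call *Pbx3*, *Dach1*, *Lmo4* or *Zfhx3* (adjusted p from 0.43 to 0.82) and gave *Meis1* no adjusted p. *Dach1* and *Zfpm2* were also lost without the library block (edgeR adjusted p = 0.069 and 0.28). Of the ROR family and clock genes, *Rora* was higher (log2 1.19 ± 0.13 (SE)) and *Npas2* lower (log2 −0.63 ± 0.17 (SE)). *Npas2* was not called by DESeq2 (adjusted p = 0.48), nor by edgeR without the library block (0.13), without the deepest 10% (0.16) or with no glial marker UMI (0.11), while *Rora* was called in each.

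Receptors for modulators differed in 10 of 17 genes tested, 5 in each direction, against 8.85% of all genes. *Chrm3*, a muscarinic receptor, was at 314 and 355 CPM against 75.7 and 147 (log2 1.68 ± 0.18 (SE)). The serotonin receptor genes *Htr2a*, *Htr2c* and *Htr7* were higher, by 1.69, 0.78 and 1.61 on the log2 scale, and *Htr1f* was lower, at −0.50. None of these 4 was called without the deepest 10% (edgeR adjusted p from 0.083 to 0.15), and *Htr2c* and *Htr1f* were not called without the library block (0.052 and 0.37). Opioid receptor genes parted, with *Oprm1* (μ) at 105 and 40.8 CPM against 33.8 and 24.7 and *Oprk1* (κ) at 7.07 and 6.79 against 26.6 and 37.1. *Npsr1*, the neuropeptide S receptor, was at 131 and 163 CPM against 464 and 469.6 (log2 −1.67 ± 0.16 (SE)), and *Cnr1*, the main cannabinoid receptor of the brain, at 29.3 and 25.5 against 65.5 and 56.5. *Chrm2* was the other lower gene. *Cnr1* and *Chrm2* were not called without the deepest 10% either (0.058 and 0.53). DESeq2 called *Chrm3*, *Htr2c* and *Npsr1* in this list.

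Of 19 cadherins and protocadherins, 8 were higher and 5 lower, and of 35 axon guidance genes 11 were higher and 6 lower. Without the deepest 10% of base nuclei, edgeR no longer called *Cdh12*, *Cdh20*, *Pcdh11x*, *Cdh11*, *Pcdh10* and *Cdh8* (adjusted p from 0.064 to 0.46). Nor did it call *Epha4*, *Plxnc1*, *Efna5*, *Plxnd1*, *Unc5c*, *Dcc*, *Plxna2* or *Ntng2* of the guidance list (from 0.056 to 0.36). Of the lists counted below, *Kcnc2*, *Gria1*, *Gria3*, *Cntn6* and *Gabra5* were among the genes lost there (from 0.067 to 0.54). *Cdh6* was at 63.6 and 112 CPM against 3.07 and 28.2. In the guidance list *Plxna4* (369 and 509 CPM against 898 and 1208) and *Slit2* (255 and 219 against 460.4 and 682) were lower, and *Ephb1* (113 and 115 against 20.5 and 40.6) and *Robo1*, a Slit receptor gene (1246 and 1588 against 587 and 971), were higher. Of 28 potassium channel genes 7 were higher and 2 lower, and of 15 ionotropic glutamate receptor genes 3 were higher and 4 lower. Synaptic adhesion genes counted 8 higher and 1 lower of 30, sodium, calcium, HCN and TRPC channels 5 and 3 of 24, and GABA receptors 3 and 0 of 13. *Grik3* again stood lower (58.6 and 66.2 CPM against 266 and 217) and *Grik2* higher (2078 and 2092 against 1004 and 1231). *Grik1* and *Pcdh11x* were called although library 2 showed no such difference, with *Grik1* at 62.6 and 200.4 CPM against 66.5 and 47.7 and *Pcdh11x* at 71.7 and 241 against 76.7 and 37.1. *Otof* was called lower although library 3 showed no such difference (35.3 and 64.5 CPM against 108 and 58.3).

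Among the genes listed for other cell types and territories, *Reln* (41.4 and 91.7 CPM against 13.3 and 5.30), *Slc4a4* (129 and 185 against 13.3 and 17.7) and *Lhfpl3* were higher in Rorb nuclei than in Rspo2 nuclei. So were *Esr1* (58.6 and 62.8 CPM against 28.6 and 17.7) and *Pde11a* (48.5 and 54.3 against 6.14 and 5.30), listed as genes of the neighbouring medial amygdala. *Esr1* lay in 12 and 10 Rorb nuclei against 13 and 7 Rspo2 nuclei and was not called by DESeq2 (adjusted p = 0.47), nor by edgeR without the deepest 10% (0.094) or with no glial marker UMI (0.92). *Reln* was not called without the deepest 10% (0.090). *Cfap299*, of the ependymal list, was lower, with 10 and 8 UMIs against 30 and 38 (log2 −1.93 ± 0.38 (SE), edgeR adjusted p = 1.2e-05). *Pde11a* lay in 6 and 6 of 59 and 36 Rorb nuclei, so that a few nuclei held it. The part of such nuclei in the other differences was not tested.

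The third comparison concerned variation among the Rorb nuclei, split by *Lypd1*, a marker given for them that not all of them held. *Lypd1* was detected in 57 and 39 Rorb nuclei and not in 9 and 12. Nuclei without it were shallower in library 2, with a median of 8880 against 17194 UMIs, but not in library 3, at 12502 against 11990. *Zfp536* was at 262 and 226 CPM in nuclei with *Lypd1* and 91.4 and 117 CPM in those without. *Tox* was at 621 and 827 CPM against 159.9 and 199. *Grik1* went the other way, at 52.0 and 127 CPM against 159.9 and 432. So did *Sema5a*, at 14.9 and 53.3 CPM against 286 and 144.

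Only 6 and 11 pairs could be matched for depth, and on these edgeR called 37 of 1970 genes (1.88%), 16 higher (0.812%) and 21 lower (1.07%) with *Lypd1*. *Tox* had 58 and 107 UMIs with *Lypd1* against 9 and 29 without (log2 2.15 ± 0.45 (SE)) and *Ntng1* 68 and 79 against 15 and 20 (log2 2.01 ± 0.45 (SE)). *L3mbtl4*, *Atg7*, *Man1a*, *Gm13986*, *Satb1* and *Epha4* were the other higher genes of the 8, on at most 50 UMIs in a sum. *Grik1*, a kainate receptor gene, had 1 and 7 UMIs against 10 and 63 (log2 −3.19 ± 0.57 (SE)), but in 1 and 3 nuclei against 2 and 5. *Sema5a* had 0 and 6 against 22 and 21, *Crim1* 3 and 7 against 33 and 28 and *Foxp2*, a forkhead factor, 7 and 1 against 20 and 19. *Plcxd3*, *Arhgap6*, *Cep112* and *Grik4* were lower as well, as were the list members *Meis2*, *Pbx3*, *Nfib*, *Nrp1*, *Lhfpl3* and *Unc5d*. Several of the lower genes were abundant in GABAergic nuclei, with *Foxp2* at 700.4 and 1141 CPM there against 33.0 and 34.8 in all Rorb nuclei, *Grik1* at 1013 and 796 against 61.2 and 191, *Meis2* at 1139.9 and 1559 against 115 and 104 and *Pbx3* at 606 and 861 against 119 and 106. Others were not, with *Crim1* at 98.9 and 97.4 CPM against 102 and 102 and *Nrp1* at 55.7 and 62.8 against 56.4 and 136. The part of GABAergic RNA in this split was not tested. *Zfp536* had 3 and 44 UMIs with *Lypd1* against 3 and 17 without on these pairs, no difference in library 2 and a higher count in library 3, and did not pass (log2 1.06 ± 0.54 (SE), edgeR adjusted p = 0.55). DESeq2 called none of the 1970 genes, with 43 at an unadjusted p below 0.05, and edgeR called none without the library block, so the gene calls of this comparison rest on the block and on a handful of nuclei.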

How the data were processed

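Nuclei were run on 10x 3′ v3.1 chemistry, and the authors made the deposited UMI count matrices with Cell Ranger 7.0.1 on mm10 (GRCm38), per the labels. Libraries 2 and 3 held 3792 and 4588 barcodes with 24354374 and 33049068 UMIs. No doublet caller was run. UMIs were summed per library and arm after 1:1 depth matching within 10%, and the 4 sums were tested with edgeR 4.0.16 (R 4.3.3, TMM, filterByExpr, quasi-likelihood test, Benjamini-Hochberg threshold 0.05), leaving out the 8 genes of the rule. Library was a block, since both arms of a pair come from the same library. DESeq2 1.42.0 was an alternative. GABAergic nuclei had at least 2 *Gad1* or *Gad2* UMIs, and oligodendrocytes at least 1% of UMIs from 4 myelin genes. Gene positions came from GENCODE for GRCm38, which held 32235 of 32285 genes listed. Exact Clopper-Pearson intervals cover counting error only.

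Named genes were the 12 highest and 12 lowest called genes by log2 fold change with at least 30 UMIs and 1 sign in both libraries (8 and 8 in the other comparisons), the study's marker genes, clock genes and called list members with the largest and smallest folds, up to 4. Other called list members were named after their values were seen. Some genes that the rule names are not reported here. Members, lists and tests were chosen with earlier results of these data known. On simulated data for the first comparison (7556 genes, 200 changed), edgeR with the block recovered 16% of 2-fold and 89% of 4-fold changes, with 3.67% false calls. In this simulation every gene had the same spread, and changed genes were drawn from the more abundant ones. Clustering of UMIs in few nuclei was not simulated, so these rates need not hold for the real calls. Alternatives covered normalisation, filter, block, threshold, matching, thinning, deep nuclei, glial limits and leaving out each library.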

Additional observations from a re-analysis of the deposited data

Results flagged for a closer look

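Library 1, which entered no comparison, held 8 barcodes that met the rule among 58 base nuclei. They had 21 *Zfp536* UMIs (345 CPM), against 12 (59.4 CPM) in its 33 Rorb-0 nuclei. *Col26a1* was at 49.2 CPM against 34.6 on 3 UMIs and *Lypd1* at 148 against 138 on 9. Among other genes, the level was lower than in Rorb-0 nuclei on few counts, with 2 UMIs of *Kcnh5* (32.8 CPM against 64.3) and 4 of *Cdh6* (65.6 CPM against 173). These nuclei were not matched for depth and no test was made.

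The astrocyte limit of the rule kept out 32 barcodes of library 2 and 74 of library 3 that otherwise met it. Their *Rorb* level was 751 and 1043 CPM and their summed astrocyte markers 7998 and 9297 CPM. *Slc17a7* was at 159 and 111 CPM in them, beside 156 and 97.2 CPM in Rorb nuclei, while *Zfp536* was at 7.78 and 114 CPM. What these barcodes hold was not tested.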

How the results depend on the processing

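Of the recomputed values of the genes chosen to be named, 2491 kept direction and, where a test was made, side of the threshold. Another 694 kept direction only, 12 passed newly and 6 reversed. Values from a single library had no test and are counted here by direction only. Over all called genes tested again, 299 of 301 kept direction and 240 were called again against partners with *Rspo2* below 2 (422 calls in all), and 438 of 445 kept direction and 186 were called again against Rspo2 nuclei with no glial marker UMI. Against Rorb-0 nuclei (303 genes), there were 164 calls with no replicate block, 54 by DESeq2 (40 higher, 14 lower), 40 with library size in place of TMM, 190 in nuclei with no glial marker UMI, 171 with an astrocyte limit of 0.05%, 476 without matching, 127 with *Rorb* of 3 or more and 110 with 5 or more, the last chosen after seeing the data. Against Rspo2 nuclei (634), there were 327 with no replicate block, 153 by DESeq2, 371 with thinned pairs, 199 without the deepest 10% and 204 with no glial marker UMI. For the split by *Lypd1* (37), there were 0 with no replicate block, 0 by DESeq2, 0 with no filter, 0 with no glial marker UMI, 0 with an astrocyte limit of 0.05% and 9 with thinned pairs. The share of Rorb nuclei (9.27%) became 6.05% with *Rorb* of 3 or more, 15.7% with 1, 3.64% with 5, 3.41% thinned and 16.0% with no astrocyte limit, and ranged from 8.06 to 10.5% leaving out a library. The causes were not tested.

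Among the genes chosen to be named, log2 differences reversed for *Dlc1* (0.012, partners with *Rspo2* below 2), and, against Rspo2 nuclei, for *Cdh13* (-0.50) and *Scn3a* (-0.040) with no glial marker UMI. With library 2 or library 3 alone, the log2 differences were -1.60 and 0.14 for *Otof*, -0.087 and 2.05 for *Grik1* and -0.098 and 2.67 for *Pcdh11x*, against -0.87, 0.93 and 1.13 on both. A single library leaves no residual degrees of freedom, so no counts were made.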
